A study of Mus musculus with 4 samples.

Results

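Elastic fibre and lysyl oxidase genes were followed in spatial transcriptomes of the 4T1 model, in which cells of a mouse mammary carcinoma line are placed in the mammary fat pad of BALB/c mice and spread to the lung. The 9 genes were taken by symbol out of 19465 in the count tables: Eln, Fbn1, Fbln1, Fbln2, Fbln5, Lox, Loxl1, Loxl2 and Loxl4. They were selected on their measured levels per section and per spot, so those levels are a description and carry no test. Spots of the same libraries are compared in what follows, so the counts of called genes are not independent of how the 9 were chosen. Each of 2 mice, named Mouse_627 and Mouse_628 in the labels, had received 100000 cells at 8 weeks of age, and primary tumour and lung were taken after 28 days. Both mice carried tumours, no untreated animal was analysed here, and the tumour cells were of 1 line. One section of each tissue per mouse was profiled on a Visium slide, in which probe pairs bound to transcripts are caught on barcoded spots and counted by unique molecular identifiers (UMIs). One spot covers a patch of tissue with several cells, often of more than 1 type, and fewer cells of a type and less RNA per cell cannot be told apart in it.

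Elastic fibres give lung and vessels their recoil. Tropoelastin, encoded by Eln, is laid onto microfibrils built from fibrillin-1, encoded by Fbn1, with the help of fibulin-5 (Fbln5), and fibulin-1 and fibulin-2 are glycoproteins that bind elastin, fibrillin and basement membranes. Lysyl oxidase and its relatives (Lox, Loxl1, Loxl2, Loxl4) oxidize lysines of elastin and collagen so that the chains are cross-linked, with Loxl1 known for elastin in particular.

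Promoter sequences of 5 of the 9 genes were found in the RefSeq table of build GRCm38.p6. The 250 bases before the start of 3 of them are shown because these genes moved differently in the comparisons of spots: Loxl4 rose in tumour-rich spots of the lung, Fbln5 was called lower there, mainly from 1 mouse, and Fbln1 had the largest estimate of the 9 in fibroblast-rich spots of the lung. Capitals mark GGGCGG (GC box), ACGTG (the core of the hypoxia response element) and CACGTG (E-box, which holds ACGTG on both strands), searched on both strands, so that CCGCCC and CACGT mark the opposite strand. The Loxl4 window is chr19:42612807-42613056 on the minus strand, and 7 of its bases lie in a GENCODE exon of the gene. The Fbln1 window is chr15:85205699-85205948 on the plus strand, and the Fbln5 window is chr12:101819120-101819369 on the minus strand. Each of these lies before the outer of 2 starts. The start used for Fbln5 lies outside the span of the gene in GENCODE, which ends at chr12:101819055. The first bases after it were in no GENCODE transcript of the gene, while those after the Loxl4 and Fbln1 starts were.
Loxl4: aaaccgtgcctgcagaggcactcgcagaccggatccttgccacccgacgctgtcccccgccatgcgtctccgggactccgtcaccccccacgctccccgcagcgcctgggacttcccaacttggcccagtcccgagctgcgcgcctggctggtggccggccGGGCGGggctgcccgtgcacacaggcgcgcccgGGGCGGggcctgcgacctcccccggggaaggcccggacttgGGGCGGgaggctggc
Fbln1: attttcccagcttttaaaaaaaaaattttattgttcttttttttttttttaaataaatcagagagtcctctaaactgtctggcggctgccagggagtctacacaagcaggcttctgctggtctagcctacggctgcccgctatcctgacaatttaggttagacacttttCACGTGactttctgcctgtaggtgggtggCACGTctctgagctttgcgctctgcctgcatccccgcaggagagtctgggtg
Fbln5: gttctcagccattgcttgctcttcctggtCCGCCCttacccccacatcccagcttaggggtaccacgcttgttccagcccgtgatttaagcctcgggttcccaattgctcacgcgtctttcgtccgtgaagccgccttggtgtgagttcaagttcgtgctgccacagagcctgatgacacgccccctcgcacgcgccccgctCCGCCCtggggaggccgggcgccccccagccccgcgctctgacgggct
The GC box was found 3 times before Loxl4 and 2 times before this start of Fbln5, and 32.7% of the 32851 promoters of the table hold it in a window of the same length. For Fbln1 the GC box was not in the window shown, but stood 11 bases before the other start. ACGTG stood in the window of Fbln1, within CACGTG and at another place, against 16.6% of promoters with ACGTG and 6.02% with CACGTG. Neither motif was in the windows of Loxl4 and Fbln5. The AP-1 motif TGANTCA was in none of the 3 windows and in 6.75% of promoters. The same held for the TEAD motif GGAATG (12.6% of promoters). The TATA box TATAAA was also in none of the 3 (12.4% of promoters). A match is a stretch of letters and shows no bound factor.

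A total of 9339 of 9445 spots under tissue had more than 200 genes and were kept. The kept spots held between 10890154 and 30240176 UMIs per section, with a median per spot of 6555 and 9174.5 in the lungs and of 2931 and 1820 in the primary tumours of Mouse_627 and Mouse_628. Levels are given in counts per 1000000 UMIs of a section (CPM). The alveolar marker Sftpc was at 9985 and 5766 CPM in the lungs and at 0.296 and 7.44 CPM in the primary tumours. The tumour marker Hmga2 was at 14.2 CPM in the lung of Mouse_627, at 93.7 CPM in the lung of Mouse_628 and at 324 and 343 CPM in the primary tumours. To see how far a low level can be read, 1178 olfactory and vomeronasal receptor genes, which lung and mammary tumour should lack, were measured in the same way. Their 95th percentile was 0.539 and 0.397 CPM in the lungs, 1.70 CPM in the primary tumour of Mouse_627 and 19.0 CPM in that of Mouse_628. In the latter section Eln, Fbn1, Fbln1, Fbln5, Lox and Loxl1 were below it, and in the primary tumour of Mouse_627 Fbln1 was.

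Of the 9 genes, 6 had a higher level in lung than in primary tumour in both mice, where 20.7% of 17309 genes with a mean of at least 1 CPM and counts in all sections did. One (Fbln2) had more in primary tumour, as 47.2% did, and Loxl2 and Loxl4 went opposite ways in the 2 mice. Eln was at 226 and 205 CPM in the lungs of Mouse_627 and Mouse_628 and at 2.51 and 7.44 CPM in the primary tumours, a ratio of 90.1 and 27.5. The ratio of 27.5 is against a level below the 95th percentile of the receptor genes and is read only as a lower limit. The elastin transcript was thus far higher in both lungs than in either primary tumour, where it rested on 34 and 81 UMIs.

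**Figure D1:**
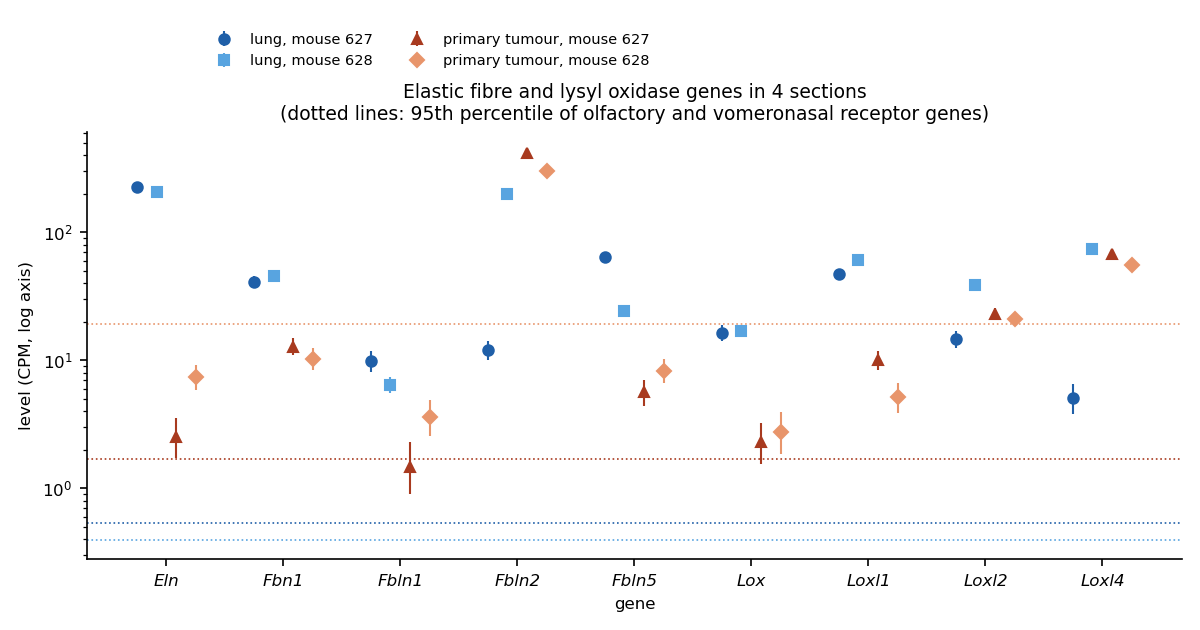
Level in CPM (log axis) of the 9 genes in each of 4 sections, with exact 95% Poisson intervals for counting error, and the 95th percentile of receptor genes per section as dotted lines. Eln is high in both lungs and low in both primary tumours, and the lung of Mouse_627 stands apart for Fbln2 and Loxl4.

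Among the microfibril and fibulin genes, Fbn1 was at 41.2 and 45.3 CPM in the lungs against 12.8 and 10.3 CPM in the primary tumours. Fbln5 was at 63.6 and 24.1 CPM against 5.62 and 8.26 CPM. Fbln1 was low in all sections, at 9.80 and 6.42 CPM against 1.48 and 3.58 CPM. For each of the 3 genes both lungs were above both primary tumours, as were 17.6% of the 18453 genes with a mean of at least 1 CPM. Fbln2 was at 11.96 CPM in the lung of Mouse_627, 197 CPM in the lung of Mouse_628, and 413 and 303 CPM in the primary tumours. The lung of Mouse_628 thus had 16.5 times the Fbln2 level of the other lung and lay between it and the primary tumours, and 46.2% of genes likewise had both primary tumours above both lungs.

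Of the cross-linking enzymes, Lox was at 16.5 and 17.0 CPM in the lungs and at 2.29 and 2.75 CPM in the primary tumours. Loxl1 was at 46.8 and 61.1 CPM against 10.1 and 5.14 CPM, so both lungs were above both primary tumours for these as well, which 17.6% of all genes share. Loxl2 was at 14.6 and 38.4 CPM in the lungs and 23.1 and 21.1 CPM in the primary tumours. Loxl4 was at 5.03 CPM in the lung of Mouse_627, at 74.3 CPM in that of Mouse_628 and at 68.2 and 55.7 CPM in the primary tumours. The 14.8-fold gap between the lungs for Loxl4 was close to that for Fbln2, and the primary tumours lay between the lungs for both Loxl2 and Loxl4.

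The median log2 ratio of lung over primary tumour of the 9 genes was 2.22 in Mouse_627 and 1.54 in Mouse_628, beside -0.41 and -0.37 over the same 17309 genes. Of 19 other genes of elastic fibres with a ratio, 8 were higher in lung, 8 in primary tumour and 3 mixed. Fbn2 and Fbln7, counted as higher in primary tumour, were below the 95th percentile of the receptor genes in both primary tumours. Vtn had 31 and 17 UMIs in the lungs and 0 in both primary tumours, so it has no ratio. The microfibril genes Mfap4 (307 and 93.6 CPM against 1.70 and 11.2 CPM) and Mfap2 (85.6 and 54.6 CPM against 3.18 and 6.24 CPM) went the way of Eln. Ltbp1, a binder of latent TGF-beta, went the way of Fbln2 with 27.7 and 85.8 CPM in the lungs against 275 and 227 CPM. Of 8 proteases known to cleave elastin, 5 were higher in lung, 2 in primary tumour and 1 mixed, with the macrophage elastase Mmp12 at 16.8 and 47.9 CPM in the lungs and 508 and 111 CPM in the primary tumours.

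To compare how many spots held each transcript at equal depth, each spot was thinned to 1000 UMIs. Eln was then found in 18.4% (exact 95% binomial interval 16.6 to 20.3%) of 1687 lung spots of Mouse_627 and 19.2% (17.8 to 20.8%) of 2775 of Mouse_628. In the primary tumours it was found in 0.374% and 1.90% of 1604 and 2316 spots. Fbln2 was found in 1.36% and 11.5% of lung spots and in 35.2% and 17.7% of primary tumour spots. The share was higher in both lungs than in both primary tumours for Eln, Fbn1, Fbln5, Lox and Loxl1, the last at 4.80% and 6.81% against 0.873% and 0.734%. By the expected share at this depth, which adds Fbln1, the same held for 14.8% of 18453 genes. Fbln2 had the higher share in both primary tumours, as 48.0% of genes did, and nothing particular to the 9 genes is read from these counts. Without thinning, Eln was in 63.2% and 72.1% of lung spots, with up to 24 and 32 UMIs in 1 spot, and the tenth of spots richest in it held 41.1% and 40.8% of its UMIs.

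Spots within a section were set against each other. For each of several lists of marker genes a spot was scored by the mean of its standardized marker levels, and the top 10% of a section, called rich, were summed and set against the spots at or below the median, called poor. These ranges are cuts of a score and not cell types. Sums were tested by edgeR's quasi-likelihood test with the section as a block, a log2 estimate with its SE, and Benjamini-Hochberg adjustment over all genes tested. With 2 sections per tissue the fits had 2 residual degrees of freedom, and a fit without the block called none of the 9 genes in any comparison.

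In the lung, tumour-rich spots had more Fbln2 and Loxl4 and less Fbln5 than tumour-poor spots, so 3 of 9 genes changed, where 17.3% of the 13709 genes tested did. Loxl4 was at 21.1 CPM in tumour-rich and 1.91 CPM in tumour-poor spots of Mouse_627, and at 126 and 23.5 CPM in those of Mouse_628. Its log2 estimate was 2.62 (SE 0.34, adjusted p = 2.85e-07). Fbln2 was at 31.3 against 8.45 CPM in Mouse_627 and at 430 against 49.7 CPM in Mouse_628, with an estimate of 2.46 (SE 0.41, adjusted p = 2.77e-05). Both lungs moved the same way for these genes, and the tumour-poor spots of Mouse_628 held more of each than the tumour-poor spots of Mouse_627. The tumour-poor spots of Mouse_628 also held tumour markers, with Hmga2 at 19.9, Csf3 at 22.6, Plau at 71.6 and Mmp3 at 139 CPM. All of these were at 0 CPM in the tumour-poor spots of Mouse_627, and Inhba was at 0 CPM in those of both mice. The median macrophage score was also higher in tumour-rich than in tumour-poor spots, at 0.14 against -0.11 in Mouse_627 and 0.32 against -0.23 in Mouse_628. So was the fibroblast score, at -0.0036 against -0.15 and 0.03 against -0.20. The part of both scores was not tested. Fbln5 was at 53.2 against 62.7 CPM in Mouse_627 and at 10.1 against 36.0 CPM in Mouse_628 (log2 -1.16, SE 0.36, adjusted p = 0.0197), so nearly all of the drop lay in Mouse_628, with a log2 estimate of -0.38 in Mouse_627 alone and -2.33 in Mouse_628 alone. This call was lost by DESeq2 (adjusted p = 0.18), with the top 25% of spots as rich (adjusted p = 0.0655) and over spots with at least 3000 UMIs (adjusted p = 0.0716). With the top 25% Fbln2 did not pass either (log2 1.84, adjusted p = 0.0519). The median endothelial score was also lower in tumour-rich spots, at -0.11 against 0.06 in Mouse_627 and -0.40 against 0.19 in Mouse_628, and its part in the drop of Fbln5 was not tested.

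The other 6 genes did not pass the test. Loxl2 was at 16.1 against 12.9 CPM and at 70.0 against 23.2 CPM (log2 0.94, SE 0.35, adjusted p = 0.0521). Eln was at 221 against 215 CPM in Mouse_627 and at 104 against 260 CPM in Mouse_628 (log2 -0.78, SE 0.33, adjusted p = 0.10). Elastin was therefore level in one lung and lower among tumour-rich spots in the other, and the lower level stood beside a lower score of alveolar markers. The median alveolar score in tumour-rich and tumour-poor spots was -0.81 and 0.37 in Mouse_628, and -0.0041 and 0.0965 in Mouse_627. The median neutrophil score was likewise -1.22 and 0.65 in Mouse_628, and -0.31 and 0.23 in Mouse_627, where Eln was level. Tumour-rich spots of Mouse_628 were also deeper, with a median of 17065.5 against 7252.5 UMIs. The part of these in the result was not tested. In the lung of Mouse_627, 1179 of 1697 spots were in the tumour-poor range, since its tumour markers were sparse.

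**Figure D2:**
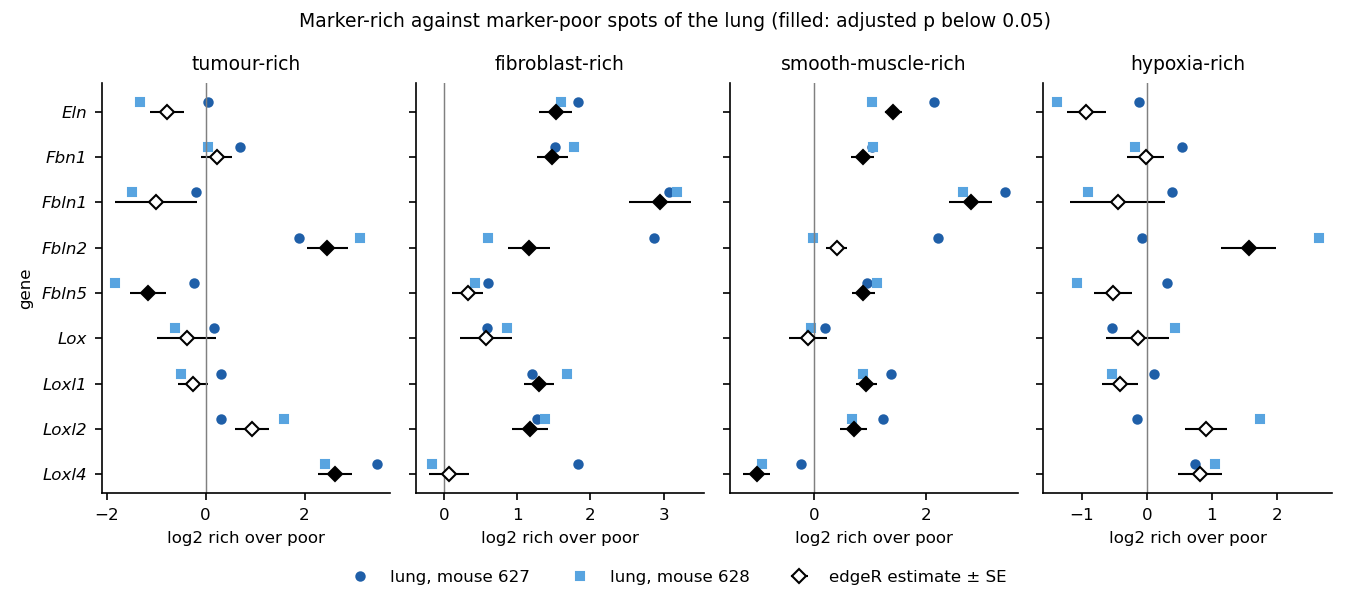
Log2 of the level in rich over poor spots of the lung for 4 marker lists, with the edgeR estimate and its SE (diamonds, filled where the adjusted p is below 0.05) and the plain ratio in each of the 2 lungs (blue points). Fbln2 and Loxl4 stand to the right in tumour-rich spots, and Eln, Fbn1, Fbln1, Loxl1 and Loxl2 in fibroblast-rich and smooth-muscle-rich spots.

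Of 17 other genes of elastic fibres tested in tumour-rich lung spots, 4 rose and 4 fell. Among those that rose were the lysyl oxidase relative Loxl3 (log2 1.61), the procollagen protease Bmp1 (1.50) and the latent TGF-beta binder Ltbp3 (1.27). Among those that fell were Efemp1, which encodes fibulin-3 (log2 -2.08), Mfap4 (-1.72) and Emilin2 (-1.38). Of 8 elastin-cleaving proteases Mmp12 rose (log2 1.88), and Mmp9 (-1.63), Prtn3 (-1.49) and Elane (-1.45) fell, and Prtn3 and Elane encode proteases of neutrophils.

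Levels were also read by distance from tumour-rich spots, in steps of the spot grid. In the lung of Mouse_628, Fbln2 was at 430 CPM in tumour-rich spots, 315 CPM 1 step away, 104 CPM at 2 to 3 steps, 59.8 CPM at 4 to 6 steps and 31.3 CPM beyond 6 steps. Loxl4 was at 126, 105, 62.6, 30.8 and 30.2 CPM over the same rings. Both were thus lower in each ring outward. Loxl2 was at 70.0 CPM in tumour-rich spots and 15.7 CPM beyond 6 steps, while Fbln5 was lowest in tumour-rich spots, at 10.1 CPM, and reached 36.3 CPM at 4 to 6 steps. Eln was at 104, 150, 275, 266 and 191 CPM, highest in the rings between. In the lung of Mouse_627, Loxl4 was at 21.1 CPM in tumour-rich spots, 6.33 CPM 1 step away, 2.55 CPM at 2 to 3 steps and 0.873 CPM at 4 to 6 steps, and Eln stayed between 212 and 239 CPM. The ring beyond 6 steps held 7 spots there and is left out. In Mouse_628 the spots 1 step away still had a median tumour score of 0.56, beside 1.18 in tumour-rich spots and -0.16 at 2 to 3 steps. Over the same rings the median alveolar score was -0.81, -0.55, 0.26, 0.33 and 0.15. The median depth was 17065.5, 14034, 8727.5, 7937 and 7117 UMIs, and the part of these was not tested. Values by ring are a description, since spots of 1 section are not replicates.

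**Figure D3:**
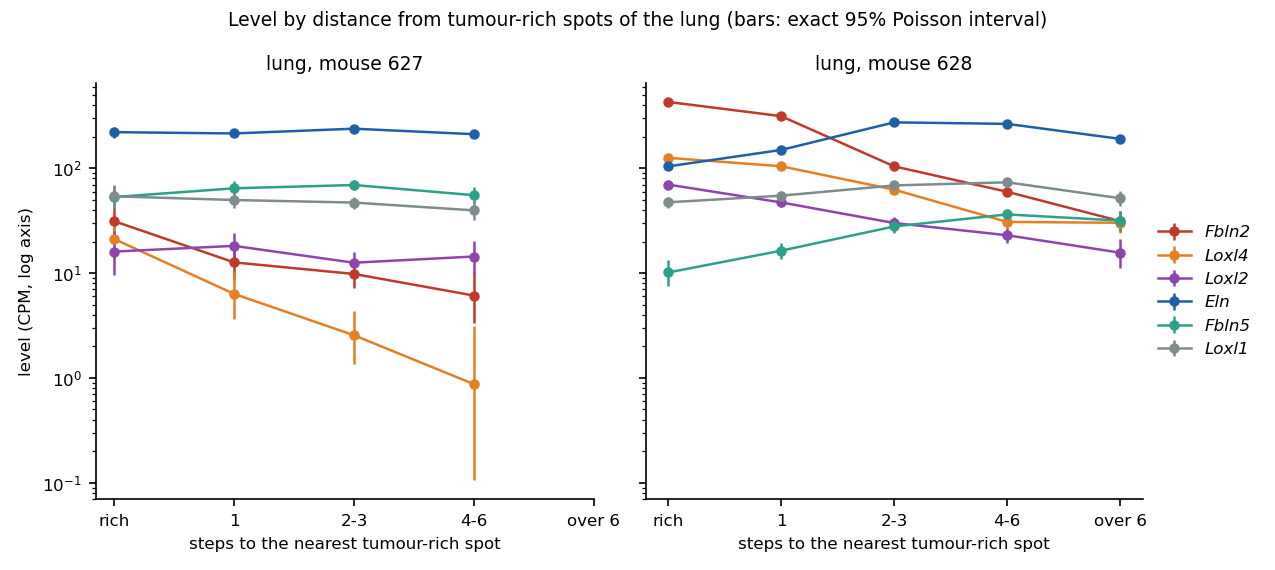
Level in CPM (log axis) of 6 genes in tumour-rich spots and in rings of spots around them, in steps of the spot grid, for each lung, with exact 95% Poisson intervals for counting error. Fbln2 and Loxl4 are lower in each ring outward in both lungs, and Eln and Fbln5 are lowest in tumour-rich spots in the lung of Mouse_628.

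**Figure D4:**
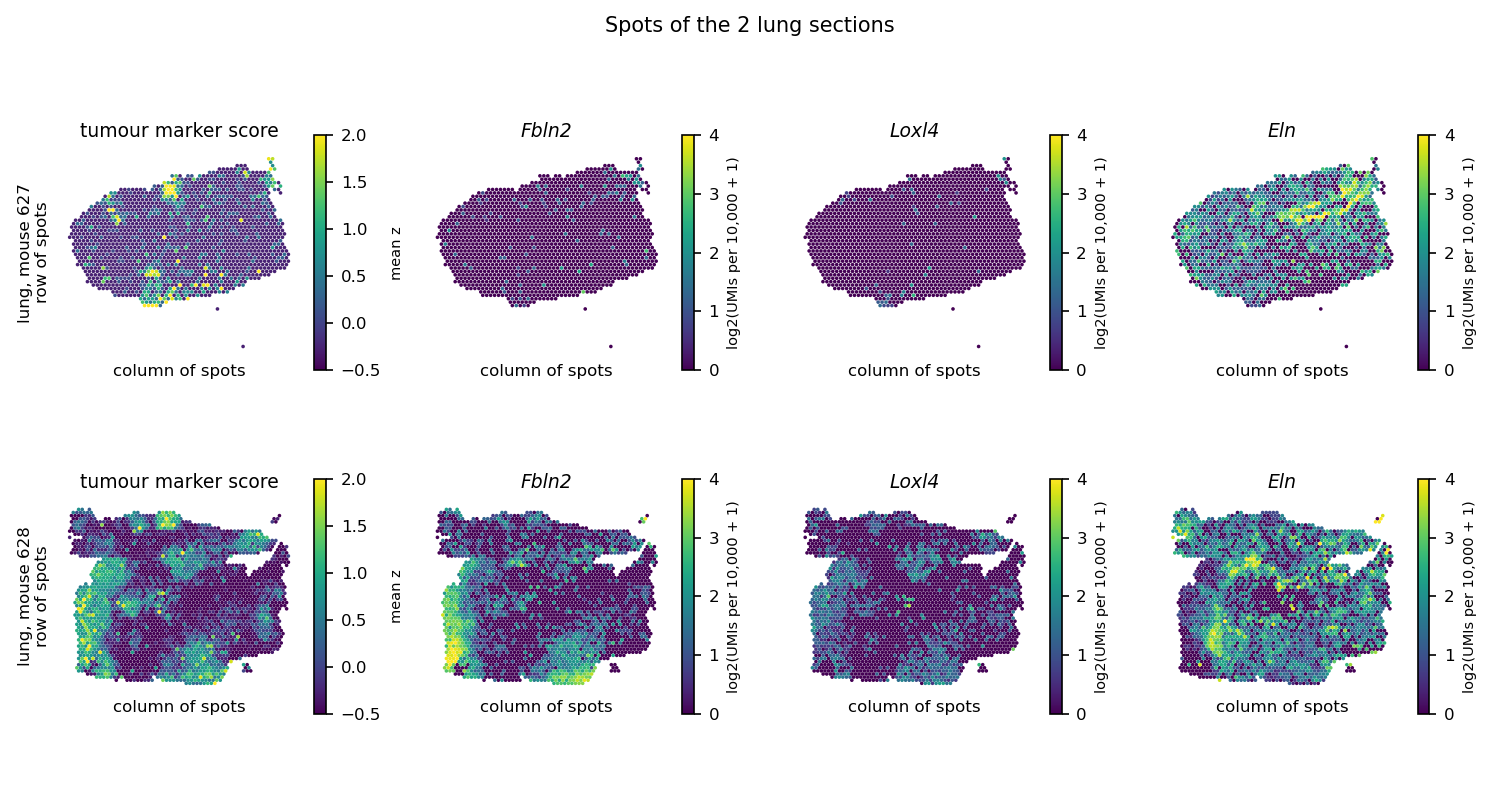
Spots of the 2 lung sections at their place on the slide, coloured by the tumour marker score (mean of standardized levels) and by log2 of UMIs per 10000 plus 1 for Fbln2, Loxl4 and Eln. In the lung of Mouse_628 Fbln2 and Loxl4 are high along the left and lower margins, where the tumour score is high too, and Eln is high in narrow bands in both lungs.

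Fibroblast-rich spots of the lung had more of 6 of the 9 genes than fibroblast-poor spots, and none had less, where 10.1% of 15778 genes changed. DESeq2 called 3 of them, Fbn1, Fbln1 and Loxl1, and not Eln (adjusted p = 0.70), Fbln2 (0.35) or Loxl2 (0.0804). Fbln1 was at 36.3 against 4.31 CPM in Mouse_627 and at 31.6 against 3.48 CPM in Mouse_628 (log2 2.95, SE 0.43, adjusted p = 8.14e-07). Eln was at 550 against 155 CPM and at 424 against 140 CPM (log2 1.53, SE 0.23, adjusted p = 1.31e-06). Fbn1 was at 83.9 against 29.4 CPM and at 98.1 against 28.7 CPM (log2 1.48, SE 0.22, adjusted p = 1.03e-06). Loxl1 (log2 1.30, SE 0.21) and Loxl2 (1.17, SE 0.24) rose as well, with adjusted p = 6.72e-06 and 0.000566. Fbln2 rose with a log2 estimate of 1.16 (SE 0.29, adjusted p = 0.00386) that differed between the lungs, at 2.55 in Mouse_627 alone and 0.45 in Mouse_628 alone.

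Fbln5 (log2 0.32, SE 0.21), Lox (0.57, SE 0.36) and Loxl4 (0.07, SE 0.27) did not pass. Loxl4 was at 10.5 against 2.94 CPM in Mouse_627 and at 57.5 against 64.5 CPM in Mouse_628, so the 2 lungs pointed in opposite directions. The median log2 estimate of the 9 genes was 1.17, beside -0.01 over all genes tested. Fibroblast-rich spots overlapped with spots rich in cardiac markers, 51 of 170 in Mouse_627 and 123 of 278 in Mouse_628, and without cardiac-rich spots 6 genes were again called. They also overlapped airway-rich spots, 58 of 170 and 67 of 278, macrophage-rich spots, 53 of 170 and 23 of 278, and in Mouse_628 adipose-rich spots, 115 of 278. The median neutrophil score was lower in fibroblast-rich than in fibroblast-poor spots, at -0.64 against 0.29 and -0.33 against 0.55, as was the alveolar score, at -0.50 against 0.07 and -0.48 against 0.23. The part of these in the result and in the proteases below was not tested. Of 17 other elastic fibre genes 4 rose, among them the microfibril gene Mfap5 (log2 2.60), Ltbp1 (0.94) and Emilin1 (0.66), and Emilin2 fell (-0.86). Of the proteases Mmp2, a gelatinase of stromal cells, rose (log2 1.99), as did Ctsk (0.77), while Mmp12 (-1.26), Mmp9 (-1.03) and Prtn3 (-0.86) fell.

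Smooth-muscle-rich spots of the lung, which hold markers of vessel and airway muscle such as Myh11 and Acta2, differed in 7 of the 9 genes, 6 higher and 1 lower, where 12.7% of 18823 genes changed. DESeq2 called only Eln and Fbln1, and the other 5 had an adjusted p between 0.12 and 0.41. Eln was at 620 against 140 CPM in Mouse_627 and at 346 against 169 CPM in Mouse_628 (log2 1.41, SE 0.15, adjusted p = 5.26e-18). Fbln1 was at 33.8 against 3.15 CPM and at 27.2 against 4.26 CPM (log2 2.80, SE 0.39, adjusted p = 2.55e-11). Fbln5, which did not pass in fibroblast-rich spots, was at 105 against 54.3 CPM and at 47.7 against 21.7 CPM (log2 0.88, SE 0.21, adjusted p = 0.000471). Fbln5 was thus higher in the rich spots of each lung, although the rich spots of Mouse_628 lay below the poor spots of Mouse_627. Loxl1 (log2 0.94), Fbn1 (0.87) and Loxl2 (0.70) rose, with adjusted p = 3.11e-05, 0.000387 and 0.0340. Loxl4 fell (log2 -1.04, SE 0.25, adjusted p = 0.000583), from 79.8 to 41.5 CPM in Mouse_628 and from 5.56 to 4.71 CPM in Mouse_627. The median tumour score was also lower in the smooth-muscle-rich spots of Mouse_628, at -0.39 against -0.10, with 6 of 278 of them tumour-rich, and its part was not tested.

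Fibroblast-rich and smooth-muscle-rich spots were in part the same, 95 of 170 in Mouse_627 and 100 of 278 in Mouse_628. When spots rich in both were left out of the rich range, 6 genes were called in fibroblast-rich spots as before, but in smooth-muscle-rich spots Eln (log2 0.70, adjusted p = 3.82e-05) and Fbln1 (1.72, adjusted p = 0.0274) were higher, Loxl4 was lower and the other 6 did not pass. In that fit 5718 of 18703 genes were called, 4868 of them lower, and the median log2 estimate over all genes was -0.51. Smooth-muscle-rich spots also overlapped airway-rich spots, 81 of 170 and 146 of 278, and cardiac-rich spots, 47 of 170 and 81 of 278. In Mouse_628 91 of 278 were also adipose-rich. Without cardiac-rich spots, or over spots with at least 3000 UMIs, 5 genes were called higher and 1 lower. Median scores were lower in the rich spots for neutrophil (-0.35 against 0.24 and 0.13 against 0.36) and alveolar markers (-0.50 against 0.09 and -0.02 against 0.12). The same held for endothelial markers (-0.44 against 0.10 and -0.04 against 0.0036). The part of airways and of these scores in the result was not tested. Of 19 other elastic fibre genes 4 rose in smooth-muscle-rich spots, among them Mfap5 (log2 1.93) and Thsd4 (1.67), and none fell. Fbln7, also called, had only 5 and 6 UMIs in the whole lung sections, a level below the 95th percentile of the receptor genes, so its estimate is not read. Of the proteases Mmp2 rose (log2 1.70), and Mmp12 (-1.54), Ctsl (-0.74) and Ctss (-0.54) fell.

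In the primary tumours Eln, Fbln1 and Lox did not reach the minimum count for testing. None of the other 6 genes passed between fibroblast-rich and fibroblast-poor spots by edgeR, where 0.729% of genes did. Shares over all genes here are of 15778 genes filtered on both tissues, while 13968 reached the minimum in the primary tumours alone. An unadjusted p below 0.05 was found for 3 of the 6 and for 2438 of the 15778 genes. DESeq2 called none either, but with the top 25% Fbln2 (log2 0.72, adjusted p = 0.0272) and Loxl2 (0.81, adjusted p = 0.0495) passed, and without a filter on low counts Loxl2 did (0.94, adjusted p = 0.0496). Loxl2 was at 29.7 against 17.0 CPM in Mouse_627 and at 37.0 against 20.5 CPM in Mouse_628 (log2 0.92, SE 0.26, adjusted p = 0.0777), and Loxl1 was at 16.3 against 8.64 CPM and 8.63 against 4.25 CPM (log2 1.02, SE 0.35, adjusted p = 0.18). Fbln2 was at 478 against 385 CPM and at 401 against 211 CPM (log2 0.71, SE 0.24, adjusted p = 0.18). Fbln5 had log2 ratios of -0.44 and -0.84. The rich spots were deeper in Mouse_627, with a median of 7345 against 799 UMIs, and had a higher median macrophage score, at 0.28 against -0.25 and -0.0764 against -0.35, and the part of these was not tested. None of 17 other elastic fibre genes was called, and Mmp2 (log2 1.56) and Ctsk (1.14) rose. The minimum count in the primary tumours alone was not applied to these lists. Adamtsl2, one of the 17, had only 2 and 11 UMIs in the whole primary tumour sections, so the 17 include genes too sparse there to be read.

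The estimate for fibroblast-rich spots differed most between lung and primary tumour for Eln, by 3.21 on the log2 scale (SE 0.58), and for Fbln1, by 3.70 (SE 0.79). In the primary tumours alone neither gene reached the minimum count for testing, so both entered the fit through the lung, and their differences are a description with no test. Over all 15778 genes 5.16% were called different between the tissues, and none of the 6 members that reach the minimum in both tissues was. The gap came mainly from the primary tumour of Mouse_628. In fibroblast-rich spots of the primary tumour the estimate for Eln was 0.74 in Mouse_627 alone and -3.12 in Mouse_628 alone, and that for Fbln1 was 0.97 and -2.39. In lung the corresponding estimates were 1.54 and 1.45 for Eln and 2.74 and 3.01 for Fbln1. In the primary tumours the counts behind them were small: Eln had 6 UMIs in rich and 6 in poor spots of Mouse_627, and 3 in rich and 51 in poor spots of Mouse_628, while Fbln1 had 6 and 5, and 2 and 21. In the primary tumour of Mouse_628 the mean level of the receptor genes was 3.42 times higher in fibroblast-poor than in fibroblast-rich spots, and 2.79 times higher in that of Mouse_627. The part of this background in the difference was not tested, and over spots with at least 3000 UMIs the differences were 1.24 for Eln and 2.31 for Fbln1.

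**Figure D5:**
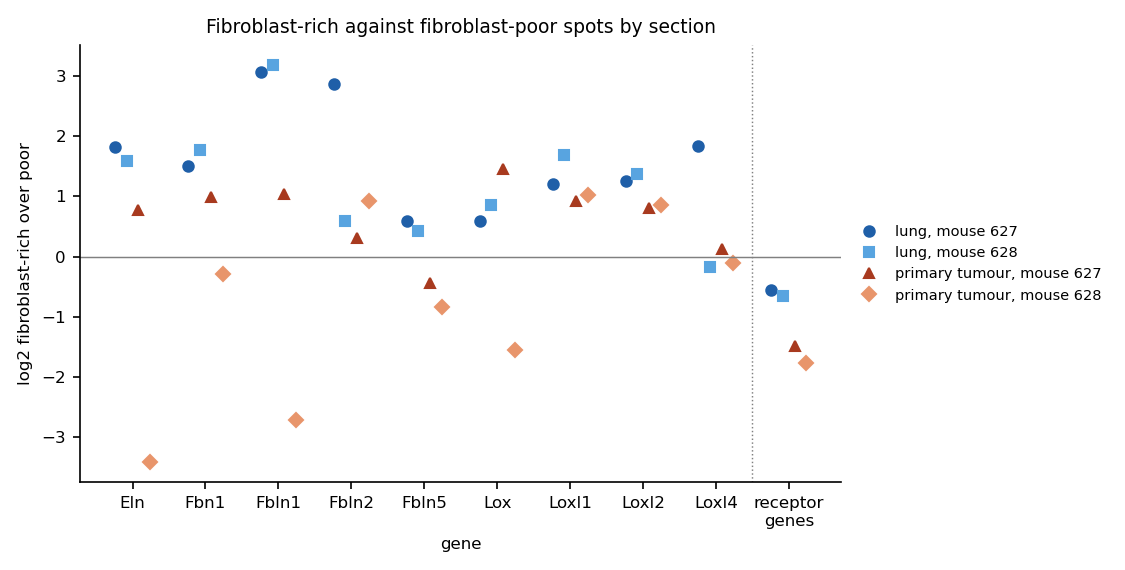
Log2 of the level in fibroblast-rich over fibroblast-poor spots for each of 4 sections, for the 9 genes and for the mean of the receptor genes. The 2 lungs lie together above 0 for Eln, Fbn1 and Fbln1, the primary tumour of Mouse_628 lies far below 0 for Eln and Fbln1, and the receptor genes lie below 0 in all sections.

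Hypoxia-rich spots, those high in targets of oxygen shortage such as Car9 and Egln3, were compared because genes of the lysyl oxidase family are known to respond to hypoxia. In the lung 1 of the 9 genes passed, where 0.889% of 13942 genes did. Fbln2 was at 585 CPM in hypoxia-rich and 93.6 CPM in hypoxia-poor spots of Mouse_628, and at 10.5 and 11.0 CPM in those of Mouse_627 (log2 1.56, SE 0.42, adjusted p = 0.0338). The call rests on Mouse_628, with a log2 estimate of 2.48 there alone and of -0.35 in Mouse_627 alone. In Mouse_628, 85 of the 278 hypoxia-rich spots were also tumour-rich, and without them Fbln2 no longer passed (log2 1.35, adjusted p = 0.0972). The call also ended by DESeq2, without a filter on low counts, with the top 25%, with scores as a share of UMIs and over spots with at least 3000 UMIs, where the adjusted p was between 0.21 and 0.999. In Mouse_628 the median tumour score was 0.76 in hypoxia-rich and -0.29 in hypoxia-poor spots, while in Mouse_627 it was -0.27 in both. Hypoxia-rich spots of Mouse_628 had lower median scores than hypoxia-poor spots for alveolar (-0.93 against 0.18), neutrophil (-1.31 against 0.43) and endothelial markers (-0.52 against 0.05). They were also deeper, with a median of 12025.5 against 8174 UMIs. The part of these scores and of depth was not tested. Lox was at 12.4 against 17.8 CPM and at 23.0 against 16.9 CPM (log2 -0.14, SE 0.48), so the lungs differed in direction. Loxl2 was at 13.3 against 14.8 CPM and at 81.7 against 24.4 CPM (log2 0.91, adjusted p = 0.13). None of the other elastic fibre genes or proteases passed.

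In the primary tumours, where Fbln1 and Lox did not reach the minimum count for testing, 2 of the other 7 genes were called lower in hypoxia-rich spots, beside 2.24% of genes changed. Shares over all genes here are of 13942 genes filtered on both tissues, while 11781 reached the minimum in the primary tumours alone. Both calls ended by DESeq2, without a filter on low counts and with scores as a share of UMIs, and that of Eln also with the top 25%. Fbln5 was at 4.04 against 6.94 CPM in Mouse_627 and at 2.69 against 22.8 CPM in Mouse_628 (log2 -1.87, SE 0.45, adjusted p = 0.00502). Eln was at 4.04 against 2.72 CPM in Mouse_627, from 8 and 9 UMIs, and at 0.384 against 19.9 CPM in Mouse_628, from 1 and 49 UMIs (log2 -2.04, SE 0.57, adjusted p = 0.0244), and its estimate in Mouse_627 alone was 0.65. The mean level of the receptor genes was 7.04 times higher in hypoxia-poor than in hypoxia-rich spots of Mouse_628 and 1.84 times higher in those of Mouse_627, and the rich spots were deeper, with a median of 6858 against 619 UMIs in Mouse_627 and 5092.5 against 1465.5 UMIs in Mouse_628. The median tumour score was also higher in the rich spots, at 0.31 against -0.25 in Mouse_627 and 0.43 against -0.27 in Mouse_628. So were the fibroblast score (0.12 against -0.50 and 0.07 against -0.32) and the macrophage score (0.14 against -0.27 and 0.04 against -0.35). The part of background, depth and these scores in both calls was not tested. Neither passed over spots with at least 3000 UMIs, where Fbln5 had a log2 estimate of -0.75 (adjusted p = 0.997 for both). Lox was at 1.51 against 2.11 CPM and at 2.30 against 6.51 CPM, from at most 16 UMIs in a range and with no test. Of the other lists Mfap4 (log2 -2.998) and Prtn3 (-2.30) fell. Their levels in the primary tumours, 1.70 and 11.2 CPM for Mfap4 and 1.70 and 8.26 CPM for Prtn3, were at or below the 95th percentile of the receptor genes, whose mean level was also lower in hypoxia-rich spots, and the part of this background was not tested. The hypoxia estimate differed between lung and primary tumour for none of these 7 genes by edgeR, where 0.0932% of genes did. An unadjusted p below 0.05 was found for 4 of the 7 and for 798 of 13942 genes.

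Other ranges were described without a test. In macrophage-rich spots of the lungs of Mouse_627 and Mouse_628, Loxl4 had log2 ratios of 2.96 and 1.33 and Fbln2 of 1.98 and 1.15. In neutrophil-rich spots Loxl4 had ratios of -2.24 and -2.98 and Fbln2 of -1.15 and -3.30. For these 2 genes both lungs thus had the same sign in each range. Of the macrophage-rich spots 40 of 170 and 54 of 278 were also tumour-rich, but of the neutrophil-rich spots 4 of 170 and 2 of 278, and the part of tumour content in these ratios was not tested. In airway-rich spots Fbln1 had ratios of 1.84 and 2.49 and Eln of 0.98 and 0.63, and in cardiac-rich spots Fbln1 had ratios of 2.93 and 2.55. In alveolar-rich spots Eln had ratios of -0.13 and 1.26, so the lungs did not share a sign.

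Neighbouring spots were then pooled into tiles of 6 rows by 12 columns, and levels were correlated across the 53 and 92 tiles of the lungs and the 76 and 73 tiles of the primary tumours. Tiles of a section share 1 library and differ in depth, so the coefficients describe the sections. Of the 36 pairs among the 9 genes, Eln and Fbln5 were the most alike, with a mean Pearson coefficient of 0.49 and values of 0.68 and 0.57 in the lungs and 0.26 and 0.44 in the primary tumours. Fbn1 and Loxl1 followed with a mean of 0.43 (0.49, 0.68, 0.61 and -0.07), and Fbln2 and Loxl4 with 0.39 (0.40, 0.70, 0.23 and 0.23). Fbln2 and Fbln5 had a mean of -0.19, with -0.58 in the lung of Mouse_628, and Fbln5 and Loxl4 one of -0.18. In the primary tumour of Mouse_628 Eln, Fbn1, Fbln5 and Loxl1 were below the 95th percentile of the receptor genes. The part of this background in the coefficients was not tested. With smaller tiles Eln and Fbln5 were again the most alike (0.38), but Fbln2 and Loxl4 (0.30) came before Fbn1 and Loxl1 (0.25), and Fbln2 and Fbln5 had a mean of -0.0991.

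Among 8289 genes with at least 10 CPM in every section, those most like Fbln2 were Wnt7b (mean 0.62), Eif3e (0.60) and Polr1d (0.60). Loxl4 was most like Plau (0.58), which is itself in the tumour marker list, Angptl2 (0.54) and Axl (0.54). The collagen genes led for Fbn1 (Col3a1, 0.43), Loxl1 (Col1a2, 0.46) and Loxl2 (Col1a1, 0.41), and Dcn led for Fbln1 (0.49). These 4 genes are all in the fibroblast marker list. Eln was most like Plbd1 (0.43), Galnt15 (0.43) and Zfp467 (0.41), Fbln5 was most like Slc43a3 (0.44), and the gene most like Lox was Lrrc28 (0.29). With smaller tiles at most 1 of the 3 leading genes of any of the 9 was again among the 3, so the order of these names is loose.

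The 9 genes lie on 9 chromosomes of the mm10 build by GENCODE. Eln spans chr5:134702593-134747323, Fbn1 chr2:125300594-125507993, Fbln1 chr15:85205949-85286535, Fbln2 chr6:91212455-91272540 and Fbln5 chr12:101746565-101819055. Of the lysyl oxidase genes, Loxl1 spans chr9:58287738-58313186, Loxl2 chr14:69609068-69695834, Loxl4 chr19:42593982-42612813, and Lox chr18:52516067-52529867. All are protein coding. The part of each transcript that the probes bind was not used here, and levels are compared between samples and not between genes.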

How the data were processed

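UMI counts came from 1 primary tumour and 1 lung section of each of 2 mice. The authors deposited raw counts per gene and spot, written by Space Ranger 2.0.0 per the file headers, against mm10 per the submitters' processing notes. Spots under tissue were included and nothing was normalized. Members and gene lists were chosen with earlier results of these data known.

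Spots with more than 200 genes were kept. CPM is counts per 1000000 UMIs of a section. Marker scores were means of standardized log levels over markers found in at least 1% of spots. A range with over 15% of spots at the cut, from ties, was left out. For sums of rich (top 10%) and poor spots edgeR 4.0.16 in R 4.3.3 was used (TMM, filterByExpr, quasi-likelihood test, section as block, 1 effect per tissue, Benjamini-Hochberg adjustment over all genes, threshold 0.05). Both sums of a section come from 1 animal, so the section pairs them: the correlation of their deviations was 0.51 to 0.92. The median log2 estimate over all genes was between -0.16 and 0.03. On counts simulated for fibroblast-rich lung spots (15778 genes), edgeR called 40 of 100 genes changed 2-fold, 77 of 100 changed 4-fold and 8 of 15446 unchanged. These counts were drawn with 1 spread for all genes and the same change in each section. They hold no difference between mice in the change, so they give no error rate for the real calls. Intervals cover counting error only. All 4 sections share 1 fit, and the spread of a gene is estimated in part from all genes. The p-values therefore do not measure the spread between the 2 mice.

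Thinning left out spots below 1000 UMIs (seed 1), and over all genes the expected share under this thinning was used. Tiles had at least 10 spots, with 10 CPM added before log2. The sections share 1458 to 2030 spot barcodes pairwise, as slides of 1 design do. Named genes were the 9 members, up to 3 called genes each way of each pathway list, and the 3 genes most alike in tiles. In the section levels Mfap4, Mfap2, Ltbp1 and Mmp12 were picked after their values were seen. Alternatives were DESeq2 1.42.0, no block, no filter on low counts, the top 25%, scores as a share of UMIs, spots with at least 1000 UMIs and leaving out a mouse. Spots with at least 3000 UMIs, leaving out spots rich in a second list and leaving out cardiac-rich spots were chosen after seeing the data. Python 3.11.15, numpy 2.4.6, scipy 1.17.1 and pandas 2.3.3 were used.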

Additional observations from a re-analysis of the deposited data

Results flagged for a closer look

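The log2 estimate for fibroblast-rich spots was higher in lung than in primary tumour by 3.21 for Eln and by 3.70 for Fbln1. Neither gene reached the minimum count in the primary tumours alone, so these differences carry no test, and over spots with at least 3000 UMIs they were 1.24 and 2.31. The difference came mainly from the primary tumour of Mouse_628, with estimates of -3.12 for Eln and -2.39 for Fbln1 there alone, beside 0.74 and 0.97 in Mouse_627 alone. In the primary tumour of Mouse_628 both genes were below the 95th percentile of the receptor genes.

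Fbln5 had ratios of opposite sign in fibroblast-rich spots of the tissues, with log2 values of 0.59 and 0.42 in the lungs of Mouse_627 and Mouse_628 and of -0.44 and -0.84 in the primary tumours. Fbln5 was called in neither tissue, and the edgeR test of the difference gave 0.89 (adjusted p = 0.28). The mean level of the receptor genes was 2.79 and 3.42 times higher in the fibroblast-poor spots of the primary tumours, and with spots rich in the other list left out the lung estimate was -0.27. Loxl4 had log2 ratios of 0.74 and 1.05 in hypoxia-rich spots of the lungs and of -0.48 and -0.0157 in those of the primary tumours. The last is close to 0, the estimate in the primary tumours was 0.24 with the top 25% of spots, and the test of the difference gave 0.89 (adjusted p = 0.84).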

How the results depend on the processing

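The count of 6 genes higher in lung than in primary tumour held under every scaling and filter tried, and was 8 without Mouse_627 and 6 without Mouse_628. Of 21 called values, 21 kept direction and call over spots with at least 1000 UMIs, 18 without a filter on low counts, 18 with scores as a share of UMIs, 17 with the top 25%, 20 without cardiac-rich spots, 16 with spots rich in the other list left out, 14 over spots with at least 3000 UMIs, and 7 of 19 by DESeq2. The 21 include the fibroblast differences of Eln and Fbln1. These entered the fit through the lung and carry no test, so their stability is not read. Of 19 called estimates, 11 were within 1 SE in Mouse_628 alone and 8 moved further. In Mouse_627 alone 5 were within it, 12 moved further and 2 changed sign. The causes were not tested.

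Without the replicate block 0 genes were called in each comparison. The main fit called 3 in tumour-rich lung, 6 in fibroblast-rich lung, 7 in smooth-muscle-rich lung, 1 in hypoxia-rich lung and 2 in hypoxia-rich primary tumour. Eln and Fbln1 also passed there for the fibroblast difference, but both were below the minimum count in the primary tumours alone. Counts for that difference are therefore a description with no test. Over all genes the fit without the block called between 0 and 23 in each comparison, and DESeq2 called 1223 in tumour-rich, 572 in fibroblast-rich and 805 in smooth-muscle-rich lung, against 2371, 1589 and 2384. DESeq2 called 2 in tumour-rich lung, 3 in fibroblast-rich lung, 2 in smooth-muscle-rich lung and 0 in both hypoxia comparisons. In tumour-rich lung 2 were called with at least 3000 UMIs, and 4 with scores as a share of UMIs or without cardiac-rich spots, and in smooth-muscle-rich lung 6 with at least 3000 UMIs or without cardiac-rich spots, and 8 with the top 25% or share scores. Share scores gave 3 for the fibroblast difference. The top 25% gave 1 in tumour-rich lung, 2 in fibroblast-rich primary tumour, 0 in hypoxia-rich lung and 1 in hypoxia-rich primary tumour. No filter gave 1 in fibroblast-rich primary tumour and 0 in both hypoxia comparisons, and scores as a share of UMIs gave 0 in hypoxia-rich primary tumour. In hypoxia-rich lung the share scores lost Fbln2 (adjusted p = 0.21) and called Eln lower (log2 -1.31, adjusted p = 0.0262). At least 3000 UMIs gave 0 in both hypoxia comparisons and 0 for the fibroblast difference, and at least 1000 UMIs gave 1 for the hypoxia difference (0 otherwise). With the other list left out, 3 were called in smooth-muscle-rich and 0 in hypoxia-rich lung. Thinning to 2000 UMIs or none gave 6 genes with a higher share in lung, against 5. None thinned gave 0 with a lower share, against 1.

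Log2 estimates that changed sign, none of them called, were as follows. The top 25% gave Fbn1 -0.0197 in tumour-rich lung, Lox -0.0827 in fibroblast-rich primary tumour, and Loxl2 0.0595 and Loxl4 0.24 in hypoxia-rich primary tumour. No filter gave Loxl2 0.0297 and Loxl4 0.0840 there. No block gave Loxl4 -0.0746 in fibroblast-rich lung, Lox -0.0356 in fibroblast-rich primary tumour and Fbn1 0.0479 in hypoxia-rich lung, where DESeq2 gave Fbn1 0.12 and leaving out cardiac-rich spots 0.0482. Scores as a share of UMIs gave Lox 0.10 in smooth-muscle-rich and 0.0778 in hypoxia-rich lung. At least 3000 UMIs gave Eln 0.31, Fbln1 0.70 and Loxl4 -0.26 in fibroblast-rich primary tumour and Lox 0.13 in hypoxia-rich lung. Leaving out the other list gave Fbln5 -0.27 in fibroblast-rich and Fbln2 -0.0430 in smooth-muscle-rich lung.

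Leaving out 1 mouse leaves no residual degrees of freedom and so gives values with no test. The sign then turned, over both mice, in tumour-rich lung for Fbn1 (-0.45 to 0.55), Loxl1 (-1.02 to 0.16) and Lox (-1.11 to 0.0111), in fibroblast-rich lung for Loxl4 (-0.31 to 1.50), and in smooth-muscle-rich lung for Fbln2 (-0.0793 to 2.06) and Lox (-0.10 to 0.0529). It turned in fibroblast-rich primary tumour for Fbn1 (-0.0862 to 0.99), Eln (-3.12 to 0.74), Fbln1 (-2.39 to 0.97) and Lox (-1.28 to 1.37), and in hypoxia-rich primary tumour for Eln (-4.98 to 0.65) and Loxl4 (-0.37 to 0.38). In hypoxia-rich lung it turned for Fbn1 (-0.34 to 0.26), Fbln2 (-0.35 to 2.48), Fbln5 (-1.22 to 0.0262), Loxl2 (-0.43 to 1.58), Fbln1 (-1.05 to 0.10) and Lox (-0.80 to 0.28).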

Other observations

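Edge spots were those that lack some of their neighbours among the kept spots, so the border of the spot grid and gaps within a section count as edge. In the lungs they had 65.2 CPM of Fbn1 in Mouse_627 and 56.9 CPM in Mouse_628, beside 38.6 and 47.0 CPM in spots more than 5 steps inside. Lox was at 27.3 and 23.6 CPM at the edge and at 13.5 and 17.5 CPM inside. Both genes were thus higher at the edge of both lungs, as were Fbln1, Fbln2, Loxl1 and Loxl4, while Loxl2 went opposite ways. Eln was at 192 CPM at the edge and 238 CPM inside in Mouse_627, and at 155 and 266 CPM in Mouse_628. Fbln5 was also lower at the edge of both lungs. Edge spots of Mouse_627 were shallower, with a median of 4430.5 against 6884 UMIs, and the part of depth was not tested. These values are a description, with no test.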
